A study of Mus musculus with 6 samples.

Results

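The 50 genes described here encode class I and class II major histocompatibility complex (MHC) molecules, the peptide transporter that loads class I molecules, the transcription factors of the interferon pathway and the proteins that interferon induces. They are all rows of the deposited expression matrix, 50 of 14477 genes, whose symbols begin with H2-, Ifi and a digit or t, Ifih1, Irf and a digit, Stat and a digit, Oas or Gbp and a digit, or are Tap1, Tap2, B2m or Isg15. The symbols chose the genes among the rows of the matrix. Those rows are only the genes that passed the authors' filter on CPM in these same libraries. The pattern also takes in 3 genes named for binding IRF2 (Irf2bp1, Irf2bp2 and Irf2bpl), which are kept and described on their own, and Stat3, Stat5a, Stat5b and Stat6, which serve other cytokines as well. Of 110 protein-coding gene symbols in the GENCODE annotation that match the pattern, 61, among them H2-Aa, H2-Ab1, Isg15 and Oas2, are not among the rows analysed here.

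RNA-Seq was performed on ribosomal RNA-depleted total RNA from the hippocampi of 3 Phf21bΔ4/Δ4 mice (mice 2, 3 and 6) and 3 Phf21b+/+ mice (mice 5, 7 and 8), 1 library per mouse. Phf21b encodes a plant homeodomain finger protein that binds chromatin, and the Δ4 allele is a CRISPR/Cas9 deletion within exon 4, carried in every tissue on a C57BL/6J background. The line is a knockdown that keeps part of its Phf21b expression. The mice were sampled at baseline without treatment, the study describes its animals as young adult littermates of both sexes, and neither the age nor the sex of each mouse is given in the sources used here. Phf21b itself measured 2.15, 3.57 and 3.87 CPM (read counts scaled to a common library size) in Δ4/Δ4 mice 2, 3 and 6 and 6.5, 5.23 and 6.47 CPM in +/+ mice 5, 7 and 8. The genotypes did not overlap, the log2 difference (Δ4/Δ4 minus +/+) was -0.96 ± 0.26 (SE), and its false discovery rate (FDR) over all genes was 0.14 by limma. Without Δ4/Δ4 mouse 6 the log2 difference was -1.12 and passed the thresholds for differential expression. An exact permutation test of 3 mice against 3 cannot give a p-value below 0.1 and gave that value here.

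MHC class I molecules sit on the surface of most nucleated cells and display peptides from inside the cell to CD8+ T cells. A polymorphic heavy chain, such as H2-K or H2-D, folds with the light chain beta-2 microglobulin around a peptide that the TAP1 and TAP2 transporter has pumped into the endoplasmic reticulum. Class II molecules display peptides from outside the cell and are made mainly by professional antigen-presenting cells, which in the brain include microglia and macrophages at its borders. Interferons signal through JAK kinases to STAT proteins, and a complex of STAT proteins with IRF9 binds the interferon-stimulated response element in the promoters of their target genes. In healthy brain the pathway is active at a low level, and class I molecules on neurons and glia have been linked to synapse development.

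Promoters of 5 of these genes are printed because the heavy chains, their light chain and 2 interferon-induced genes that differed in opposite directions carry most of the account that follows. Each is the RefSeq promoter window of build GRCm38.p6, from 250 bases before to 50 after the annotated start, 5′ to 3′ on the gene's strand. Capitals mark the core that interferon regulatory factors contact, searched as AANNGAAA on both strands. The windows are chr17:34000284-34000583 on the minus strand for H2-K1, chr17:35262844-35263143 on the plus strand for H2-D1, chr2:122147437-122147736 on the plus strand for B2m, chr7:141010695-141010994 on the minus strand for Ifitm3 and chr19:34601919-34602218 on the minus strand for Ifit1bl1.
H2-K1: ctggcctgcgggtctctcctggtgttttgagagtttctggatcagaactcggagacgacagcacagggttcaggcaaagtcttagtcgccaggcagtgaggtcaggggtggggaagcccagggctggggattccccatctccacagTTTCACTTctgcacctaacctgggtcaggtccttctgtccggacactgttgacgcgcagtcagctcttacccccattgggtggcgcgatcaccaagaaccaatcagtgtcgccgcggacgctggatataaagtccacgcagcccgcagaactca
H2-D1: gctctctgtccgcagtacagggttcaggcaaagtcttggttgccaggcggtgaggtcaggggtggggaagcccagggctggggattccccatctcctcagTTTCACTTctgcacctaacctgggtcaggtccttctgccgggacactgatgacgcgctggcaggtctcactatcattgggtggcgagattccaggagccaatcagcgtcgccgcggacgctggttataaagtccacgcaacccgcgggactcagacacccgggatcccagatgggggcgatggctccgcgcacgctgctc
B2m: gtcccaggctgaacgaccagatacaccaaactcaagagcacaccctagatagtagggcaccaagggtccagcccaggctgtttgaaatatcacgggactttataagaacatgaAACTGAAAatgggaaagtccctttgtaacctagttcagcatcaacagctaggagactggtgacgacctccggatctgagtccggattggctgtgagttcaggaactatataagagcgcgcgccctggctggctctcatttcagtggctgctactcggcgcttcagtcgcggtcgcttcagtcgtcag
Ifitm3: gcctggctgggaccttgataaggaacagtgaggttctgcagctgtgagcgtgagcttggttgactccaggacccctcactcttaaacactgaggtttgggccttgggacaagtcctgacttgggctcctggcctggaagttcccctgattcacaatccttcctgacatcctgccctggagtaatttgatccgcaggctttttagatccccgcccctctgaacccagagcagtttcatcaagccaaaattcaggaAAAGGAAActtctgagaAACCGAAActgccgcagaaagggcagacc
Ifit1bl1: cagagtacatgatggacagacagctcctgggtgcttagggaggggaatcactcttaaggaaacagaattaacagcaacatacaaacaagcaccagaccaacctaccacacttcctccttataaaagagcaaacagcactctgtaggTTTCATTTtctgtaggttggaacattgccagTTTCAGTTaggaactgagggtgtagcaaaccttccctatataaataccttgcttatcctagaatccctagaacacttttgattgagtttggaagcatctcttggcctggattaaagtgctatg
The match began 104 bases before the start in H2-K1 and 150 bases before it in H2-D1, and lay in a run of 40 bases identical between both promoters. It began 137 bases before the start in B2m. Ifitm3 had matches 4 and 21 bases after its start, and Ifit1bl1 had them 104 and 73 bases before. RefSeq gives H2-K1 and Ifit1bl1 a further start each, not printed, relative to which the match began 90 bases before for H2-K1 and 23 bases before and 8 after for Ifit1bl1.

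RefSeq windows were matched for 43 of the 50 genes, and a gene with several windows was counted where any of them matched. The core AANNGAAA was found for 27 of 43 genes (62.8%), against 21.0% of 11292 genes of the matrix with a window and 23.9% of all 32851 windows. The longer interferon-stimulated response element, searched on both strands as GAAA, any 2 bases and GAAA again, every match of which also holds the core, was found for 18 of the 43 genes (41.9%), against 3.59% of the matrix genes with a window and 3.44% of all windows. The STAT element searched as TTCNNNGAA, a palindrome, was found for 10 of 43 (23.3%), against 8.03% and 8.30%. These letters describe the windows and not binding. The log2 difference between genotypes had a median of -0.31 over the 18 genes with the response element (12 of them below 0) and of -0.28 over the 25 without it (20 below 0). For the STAT element the medians were -0.15 with it and -0.36 without it.

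No gene of the 50 was differentially expressed by limma at an FDR below 0.1 and a change of more than 1.3-fold, a rule met by 1.22% of all 14477 genes (0.663% lower and 0.553% higher in Δ4/Δ4 mice). The smallest FDR among the 50 was 0.15. Mean log2 expression was lower in Δ4/Δ4 mice for 38 of the 50 genes (52.4% of all genes) and higher for 12. The median log2 difference was -0.31, against -0.02 over all genes, and the differences ran from -1.38 for Stat5a to 0.70 for Ifit1bl1. At an unadjusted p below 0.05 there were 13 genes, or 10 lower and 3 higher, where 23.6% of all genes passed, 12% lower and 11.6% higher. This count moved with single mice. It was 5, 8 and 11 when +/+ mice 7, 5 and 8 were left out in turn. It was 6, 7 and 18 when Δ4/Δ4 mice 3, 2 and 6 were left out in turn. The genotypes did not overlap for 16 genes, of which 13 were lower in all Δ4/Δ4 mice and 3 higher, against 31% of all genes, 16% lower and 15% higher. The lower genes of both counts include H2-DMb1, which passed the authors' CPM filter only through the +/+ mice. A test of the reads recovered from the matrix with voom also called none of the 50. Without Δ4/Δ4 mouse 6, 11 of the 50 were called when 19.5% of all genes were. Of these, 10 were lower (9.29% of all genes), namely H2-K1, H2-D1, H2-Q4, B2m, Irf3, Stat5a, Ifit3, Ifit3b, Gbp2 and Gbp3, and Ifit1bl1 was higher (10.3% of all genes). With a quality weight for each library, 16 were called when 24.5% of all genes were, 14 of them lower (14.3%) and 2 higher (10.2%). In bulk tissue, fewer cells of a type and less RNA per cell cannot be told apart.

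**Figure D1:**
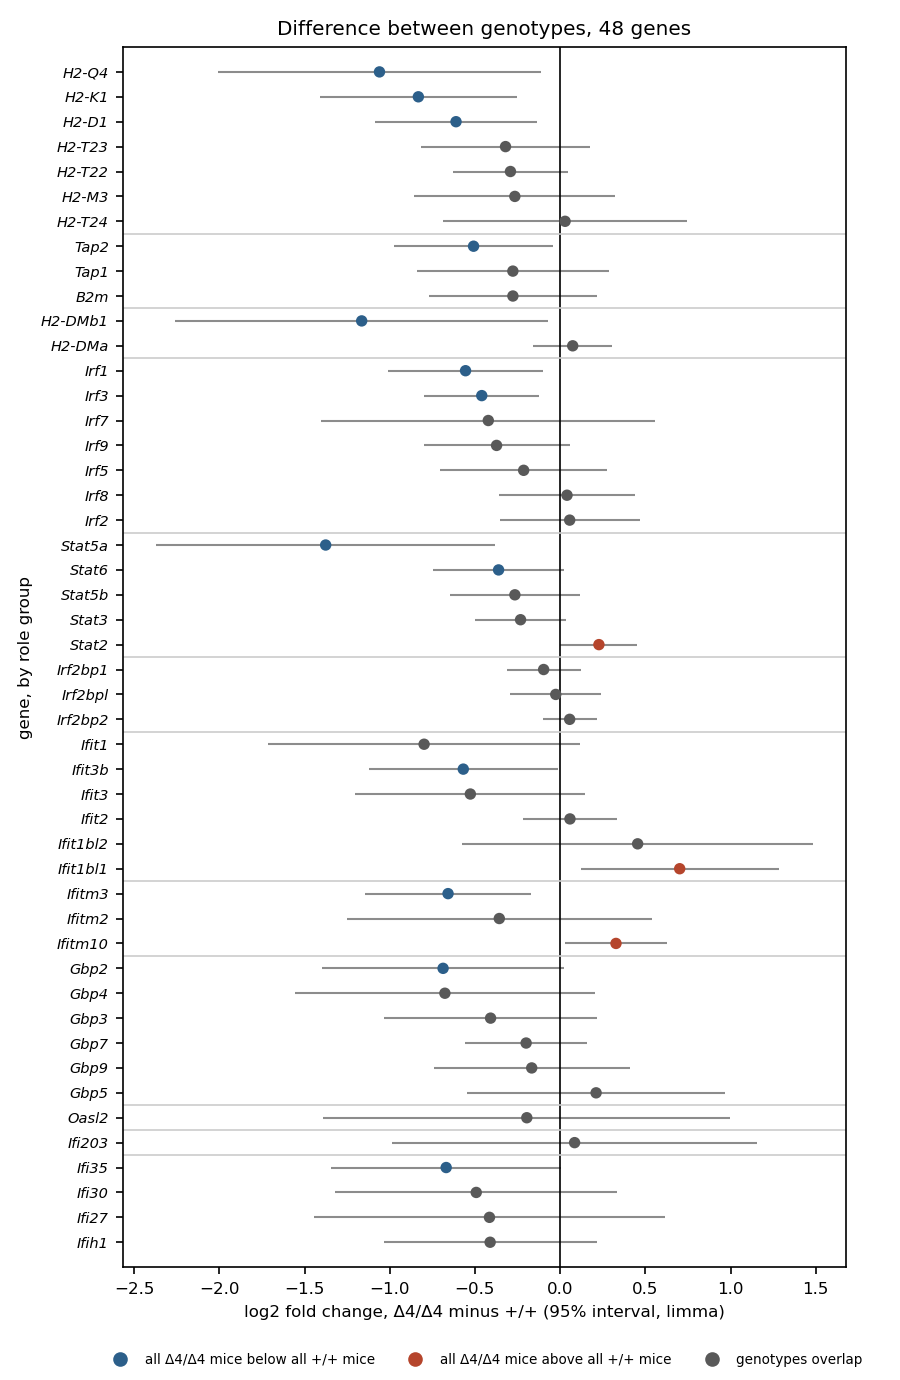
Log2 difference between genotypes (Δ4/Δ4 minus +/+, x axis) with its 95% interval from limma for 48 of the 50 genes, ordered by role on the y axis. Blue points are genes whose Δ4/Δ4 mice all lay below the +/+ mice (13 genes), red points are the reverse (3 genes), and grey points are genes whose genotypes overlapped.

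Measured per kilobase of exon, which allows genes to be compared, B2m had the highest level in +/+ mice at 77.3 CPM per kb, followed by Ifi27 at 25.7, Irf2bp2 at 15.7, Irf2bpl at 13.5, H2-D1 at 12.4, Irf2bp1 at 9.77, Ifitm3 at 8.97 and H2-K1 at 8.90. In Δ4/Δ4 mice B2m averaged 65.6, Ifi27 17.1, H2-D1 8.33 and H2-K1 5.14 CPM per kb. Mean expression over the mice was below 2 CPM for 11 of the 50 genes and above 20 CPM for 9. The lowest count of any of the 50 in any mouse was 11 reads, above a 3-read floor that equalled 0.127 to 0.143 CPM. The annotated span of 16 of the 50 genes overlaps that of another gene of the matrix, and without the strand setting of the counting their reads cannot be told apart there.

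Among the 7 class I heavy chains, 6 had a lower mean in Δ4/Δ4 mice and the median log2 difference was -0.32. H2-K1 and H2-D1 encode the classical heavy chains of this strain, and both lay lower in every Δ4/Δ4 mouse. H2-K1 (ENSMUSG00000061232.16, chromosome 17, 33996017 to 34000347, minus strand, GRCm38) measured 15.2, 10.3 and 19.8 CPM in Δ4/Δ4 mice 2, 3 and 6 and 25.2, 30.3 and 22.9 CPM in +/+ mice 5, 7 and 8. The lowest +/+ mouse exceeded the highest Δ4/Δ4 mouse by a small margin. Means were 15.1 ± 4.77 CPM and 26.1 ± 3.78 CPM (SD, n = 3 each), and the log2 difference was -0.83 ± 0.24 (SE; 95% interval -1.41 to -0.25; FDR 0.15). H2-D1 (ENSMUSG00000073411.11, chromosome 17, 35262730 to 35267499, plus strand) measured 18.8, 16.9 and 28.8 CPM in Δ4/Δ4 mice 2, 3 and 6 and 31.9, 33.9 and 30.0 CPM in the +/+ mice. Δ4/Δ4 mouse 6 stood close to the +/+ mice while mice 2 and 3 stood well below them. The means were 21.5 ± 6.41 and 31.9 ± 1.93 CPM, and the log2 difference was -0.61 ± 0.20 (95% interval -1.09 to -0.14; FDR 0.16). Over the fits that each dropped a single mouse, the log2 difference ran from -1.05 to -0.58 for H2-K1 and from -0.84 to -0.46 for H2-D1.

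The remaining heavy chains are nonclassical or less abundant. H2-Q4 measured 1.43, 0.762 and 1.91 CPM in the Δ4/Δ4 mice and 2.47, 3.59 and 2.16 CPM in the +/+ mice, with no overlap and a log2 difference of -1.06 ± 0.40 (FDR 0.18). H2-T23, which encodes the Qa-1 molecule recognized by natural killer cell receptors, measured 4.05, 4.57 and 5.13 CPM against 5.98, 6.96 and 4.45 CPM. Its genotypes overlapped through +/+ mouse 8. H2-T22 (log2 difference -0.29), H2-M3, which presents formylated peptides (-0.27), and H2-T24 (0.03) overlapped as well. Summed over the 7 heavy chains, expression was 52.3, 45 and 70.6 CPM in Δ4/Δ4 mice 2, 3 and 6 and 80.5, 92.3 and 75.1 CPM in +/+ mice 5, 7 and 8. H2 heavy chains are close in sequence, and how reads that fit several of them were assigned could divide counts among them.

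**Figure D2:**
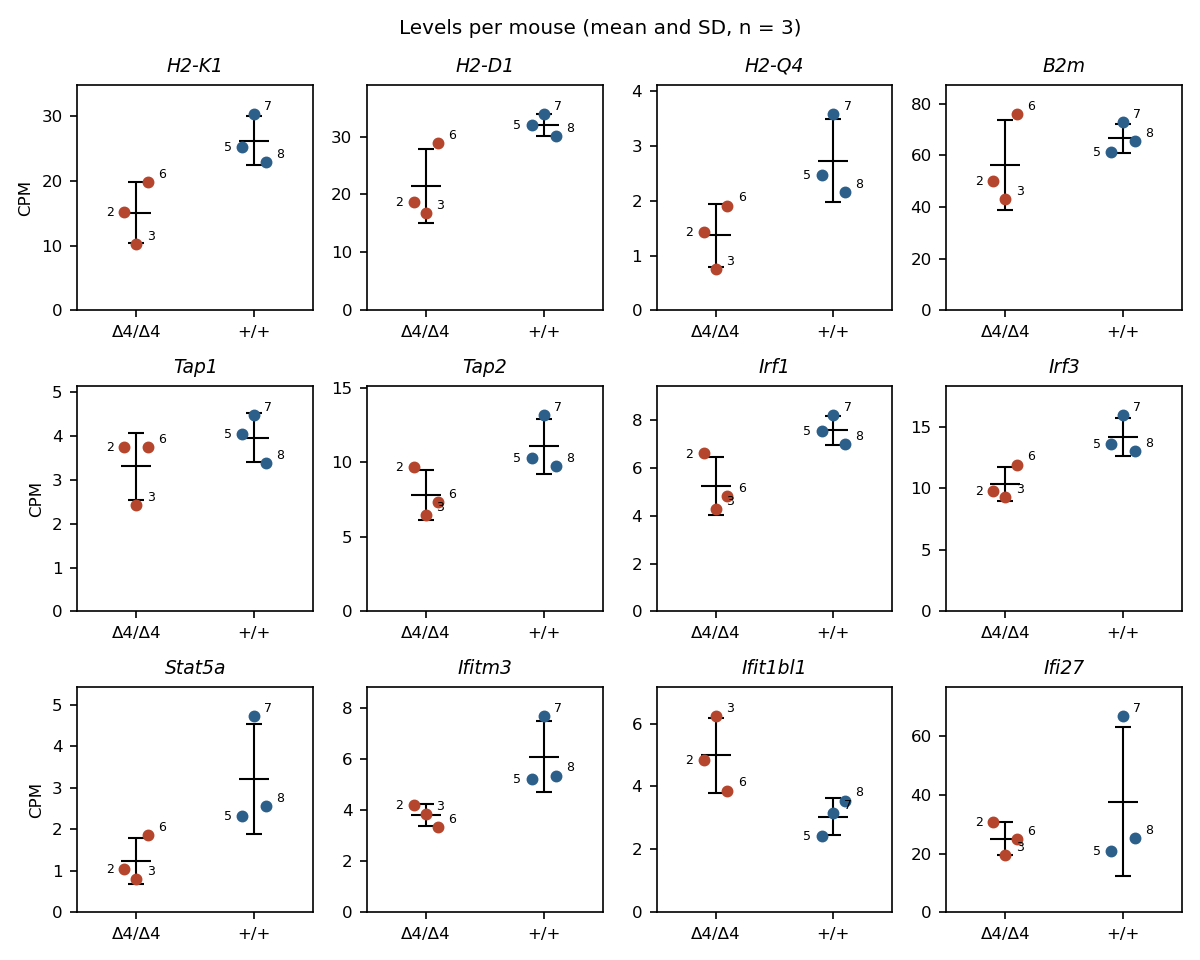
CPM (y axis, from 0) of 12 of the genes in each mouse by genotype, with mouse numbers beside the points and the mean and SD (n = 3) as bars. H2-K1, H2-D1 and Irf3 were lower in all 3 Δ4/Δ4 mice, B2m overlapped because Δ4/Δ4 mouse 6 had 76.0 CPM, and Ifi27 was high only in +/+ mouse 7 (66.8 CPM).

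B2m (ENSMUSG00000060802.8, chromosome 2, 122147686 to 122153083, plus strand), the light chain shared by all class I molecules, measured 50.1, 43.0 and 76.0 CPM in the Δ4/Δ4 mice and 61.3, 72.7 and 65.5 CPM in the +/+ mice. Δ4/Δ4 mouse 6 had the highest value of all 6 mice and the other 2 Δ4/Δ4 mice the lowest. The log2 difference was -0.28 ± 0.21 (FDR 0.42), and -0.51 without Δ4/Δ4 mouse 6. Tap2, a subunit of the peptide transporter, measured 9.70, 6.48 and 7.31 CPM in Δ4/Δ4 mice and 10.3, 13.2 and 9.75 CPM in +/+ mice. Its genotypes did not overlap but nearly met, at a log2 difference of -0.51 ± 0.20 (FDR 0.19). Tap1, the partner subunit, overlapped (3.75, 2.43 and 3.74 CPM against 4.03, 4.47 and 3.37 CPM, log2 difference -0.28). Both class II genes of the set belong to H2-DM, which exchanges peptides on class II molecules. H2-DMb1 measured 0.506, 0.667 and 0.826 CPM against 1.09, 2.7 and 1.08 CPM, with no overlap and a log2 difference of -1.17 ± 0.46 (FDR 0.20). H2-DMb1 was below the authors' CPM filter in every Δ4/Δ4 mouse and entered the matrix only through the +/+ mice. Its lower direction is therefore not independent of that filter. Its partner chain H2-DMa measured 11.6, 11.0 and 11.6 CPM against 10.9, 10.4 and 11.1 CPM, a log2 difference of 0.07 (95% interval -0.16 to 0.31). H2-DMa shares 3094 bp of its span with Brd2 on the opposite strand.

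The 11 MHC genes of the set on chromosome 17 lay between 33996017 and 37274484 (GRCm38), and 9 of them were lower, with a median log2 difference of -0.32. The 74 other genes of the matrix within the same interval had a median of -0.02, and 40 of them (54.1%) were lower. At an unadjusted p below 0.05 by limma, 5 of the 11 were lower and none higher, while 2 of the 74 were lower and 9 higher. Over all genes 12% were lower and 11.6% higher at that p. The 5 include H2-DMb1, which passed the authors' CPM filter only through the +/+ mice. By limma none of the 74 was differentially expressed. The 74 also hold the antigen presentation genes Psmb8 and Psmb9 (log2 differences -0.16 and -0.55), whose symbols the pattern does not take in.

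Interferon regulatory factors drive and restrain interferon genes, and 6 of 8 had a lower mean in Δ4/Δ4 mice (median log2 difference -0.40). Irf3, which is activated when cytoplasmic RNA or DNA is sensed and then induces interferon beta, measured 9.78, 9.29 and 11.9 CPM in Δ4/Δ4 mice and 13.6, 16 and 13 CPM in +/+ mice. The genotypes did not overlap and the spread within each was small, at 10.3 ± 1.40 and 14.2 ± 1.55 CPM. The log2 difference was -0.46 ± 0.14 (95% interval -0.80 to -0.12; FDR 0.15). Irf3 shares 1065 bp with Bcl2l12 on the opposite strand. Irf1, an activator of class I and GBP genes, measured 6.62, 4.29 and 4.83 CPM against 7.54, 8.23 and 7.01 CPM. It did not overlap either, with a log2 difference of -0.56 ± 0.19 (FDR 0.17). Irf9, the DNA-binding partner of STAT2, measured 5.65, 5.43 and 7.13 CPM against 7.26, 9.41 and 6.97 CPM and overlapped narrowly through Δ4/Δ4 mouse 6 (log2 difference -0.37, FDR 0.25). Irf8, a factor of microglia and other myeloid cells, measured 4.22, 4.76 and 4.70 CPM against 3.75, 4.73 and 4.90 CPM (log2 difference 0.04 ± 0.17). Irf2, a repressor of interferon targets, differed by 0.06, and Irf7 and Irf5 differed by -0.42 and -0.21 with overlapping genotypes. The IRF2-binding proteins Irf2bp2, Irf2bpl and Irf2bp1 differed by 0.06, -0.03 and -0.10, and Irf2bp2 stayed between 78.7 and 84.9 CPM in all 6 mice.

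Of the 6 STAT genes, 5 had a lower mean in Δ4/Δ4 mice, with a median log2 difference of -0.25. Stat2, which carries the type I interferon signal, was the exception. It measured 16.7, 15.1 and 15.3 CPM against 13.2, 13.1 and 13.9 CPM, higher in every Δ4/Δ4 mouse by 0.23 ± 0.09 on the log2 scale (FDR 0.21). Stat5a, which responds to growth hormone, prolactin and several interleukins, had the lowest log2 difference of the 50 genes. It measured 1.05, 0.810 and 1.87 CPM in Δ4/Δ4 mice and 2.33, 4.73 and 2.56 CPM in +/+ mice, a log2 difference of -1.38 ± 0.42 (95% interval -2.37 to -0.38; FDR 0.15). The genotypes did not overlap, and +/+ mouse 7 was well above the rest. Without that mouse the log2 difference was -1.06. Its close paralog Stat5b overlapped, at 17.9, 24 and 15.9 CPM against 21.5, 24.4 and 22.7 CPM (log2 difference -0.27). Stat6, which relays interleukin 4, was lower in every Δ4/Δ4 mouse, at 6.58, 8.91 and 8.70 CPM against 9.54, 11.5 and 9.84 CPM (log2 difference -0.36, FDR 0.23). Stat3, at 43.1 to 56.7 CPM against 55.1 to 59.0 CPM, overlapped through Δ4/Δ4 mouse 6. Stat3 and Stat5a share 72 bp at their ends on opposite strands.

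The IFIT proteins bind viral RNA and are among the most strongly induced products of type I interferon. All 6 of their genes in the matrix lie within 99.3 kb on chromosome 19, and they were split 3 and 3 in direction. Ifit1bl1 measured 4.85, 6.24 and 3.87 CPM in Δ4/Δ4 mice and 2.42, 3.17 and 3.55 CPM in +/+ mice, higher in every Δ4/Δ4 mouse by 0.70 ± 0.24 on the log2 scale (95% interval 0.12 to 1.28; FDR 0.17). Ifit3b measured 2.28, 1.81 and 3.0 CPM against 3.46, 3.21 and 3.64 CPM, lower in every Δ4/Δ4 mouse (-0.57 ± 0.23, FDR 0.21). Ifit3 and Ifit1 had log2 differences of -0.53 and -0.80 and overlapped, each lowest in Δ4/Δ4 mouse 3 and highest in +/+ mouse 7. Ifit2, the most abundant of the 6, ran from 12.8 to 15.1 CPM over all mice (log2 difference 0.06 ± 0.12), and Ifit1bl2 differed by 0.45 ± 0.43. Ifit3 and Ifit3b are near copies of each other, as are Ifit1bl1 and Ifit1bl2, so reads could have been divided between them.

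**Figure D3:**
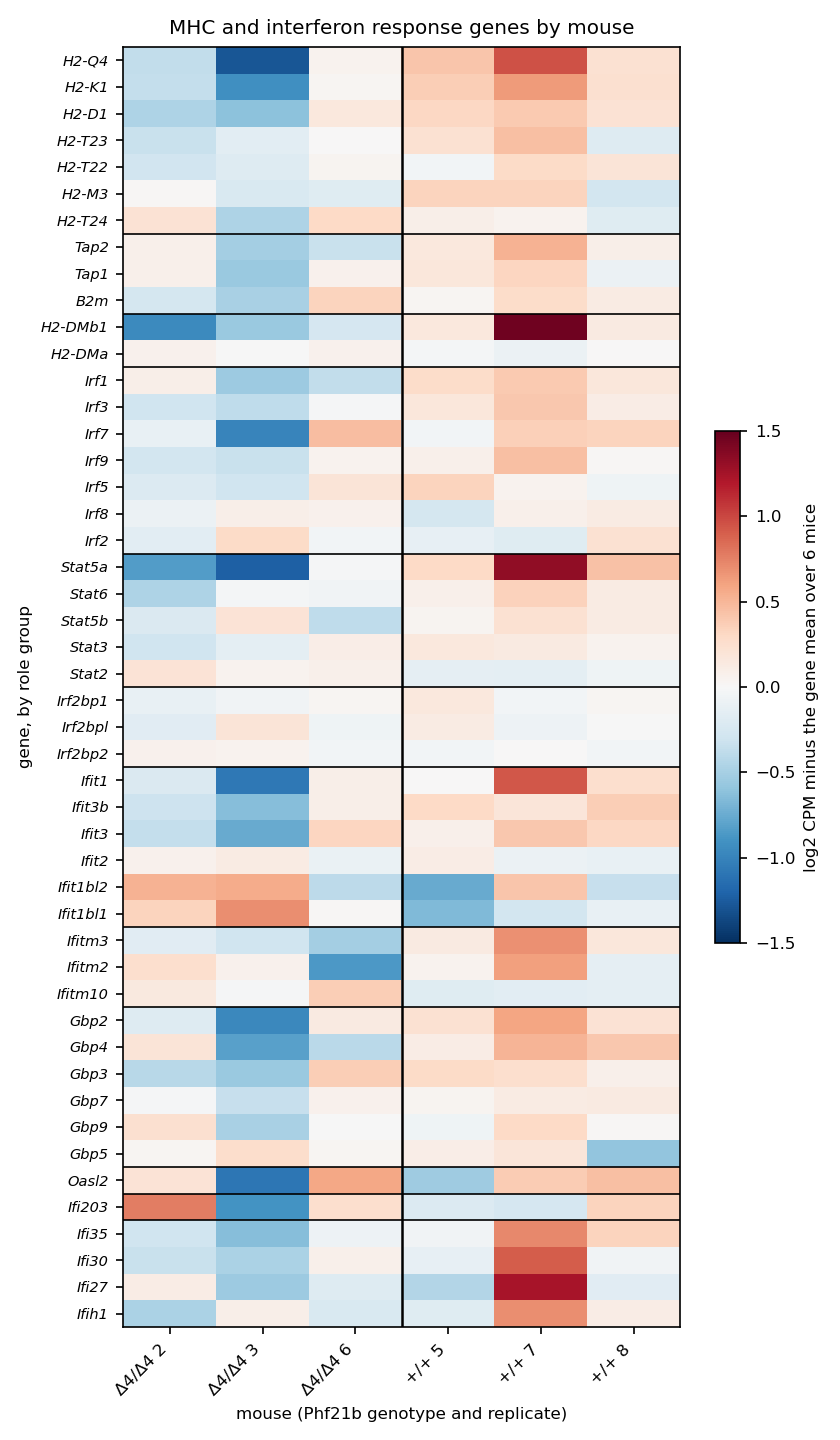
Log2 CPM of 48 of the 50 genes (y axis, grouped by role) in each mouse (x axis), minus the gene's mean over the 6 mice; red is above and blue below the mean. Red dominates the column of +/+ mouse 7 and blue that of Δ4/Δ4 mouse 3, where 26 and 27 of all 50 genes had their highest and lowest values.

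IFITM proteins sit in membranes and restrict the entry of viruses. Ifitm3 (chromosome 7, 141009586 to 141010770, minus strand) measured 4.22, 3.86 and 3.35 CPM in Δ4/Δ4 mice and 5.22, 7.68 and 5.35 CPM in +/+ mice, with no overlap and a log2 difference of -0.66 ± 0.20 (95% interval -1.14 to -0.17). Ifitm10, a more distant family member, measured 13.6, 12.1 and 15.9 CPM against 10.8, 11.0 and 11.1 CPM, higher in every Δ4/Δ4 mouse by 0.33 ± 0.13 on the log2 scale (FDR 0.19). Ifitm2 overlapped (-0.36 ± 0.38).

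The guanylate-binding proteins (GBPs), GTPases that attack intracellular pathogens, numbered 6, of which 5 were lower. Gbp2 measured 4.01, 2.33 and 5.0 CPM in Δ4/Δ4 mice and 5.36, 6.88 and 5.30 CPM in +/+ mice, without overlap (log2 difference -0.69 ± 0.30, FDR 0.22). Gbp3, Gbp4, Gbp7 and Gbp9 differed by -0.41, -0.68, -0.20 and -0.17 and Gbp5 by 0.21, all with overlapping genotypes. Gbp4 and Gbp9 share 23773 bp of annotated span on the same strand. Ifi35 measured 1.69, 1.33 and 1.96 CPM against 1.99, 3.42 and 2.61 CPM, and its genotypes nearly met at Δ4/Δ4 mouse 6 and +/+ mouse 5 (log2 difference -0.67 ± 0.28, FDR 0.21). Ifih1, which encodes the RNA sensor MDA5, measured 4.39, 6.48 and 5.18 CPM against 5.36, 9.83 and 6.56 CPM. Those ranges overlapped, as did those of Ifi30, a lysosomal thiol reductase (log2 difference -0.49), Oasl2 (-0.20 ± 0.50) and Ifi203, a DNA sensor family member (0.08 ± 0.45). Ifi27 measured 30.8, 19.5 and 24.9 CPM in Δ4/Δ4 mice and 20.9, 66.8 and 25.3 CPM in +/+ mice. Only +/+ mouse 7 stood apart, and the log2 difference moved from -0.42 ± 0.43 to 0.10 without that mouse.

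Individual mice differed across the set. The highest value of a gene was in +/+ mouse 7 for 26 of the 50 genes, against 23.5% of all genes, and the lowest value was in Δ4/Δ4 mouse 3 for 27, against 24.8% of all genes. The median deviation of the 50 genes from their means over the 6 mice was -0.14, -0.34 and 0.03 on the log2 scale in Δ4/Δ4 mice 2, 3 and 6 and 0.09, 0.34 and 0.10 in +/+ mice 5, 7 and 8. Δ4/Δ4 mouse 6 thus stood between its group and the +/+ mice. The value in +/+ mouse 7 was more than 1.5 times the next highest mouse for 5 genes, namely H2-DMb1, Ifi27, Stat5a, Ifi30 and Ifit1 (4.18% of all genes), and for no gene of the set was any other mouse so far above the next. Without +/+ mouse 7, 39 of the 50 genes were lower in Δ4/Δ4 mice, the median log2 difference was -0.20, and the smallest FDR of the 50 was 0.37. Without +/+ mouse 8 these values were 40, -0.39 and 0.36. Calls over the whole matrix also fell, from 1.22% of genes to 0.0967% without +/+ mouse 7 and 0.0622% without +/+ mouse 8.

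Markers of cell types were summed in the same libraries, and their part in the differences above was not tested. Microglial markers (15 of 15 in the matrix) were at 566 to 638 CPM in Δ4/Δ4 mice and 573 to 620 CPM in +/+ mice. Among them 8 were lower and 7 higher (median log2 difference -0.08), and none was called. Only Csf1r, Cx3cr1, Itgam and Fcrls had genotypes that did not overlap, and these 4 were higher in every Δ4/Δ4 mouse. Choroid plexus markers (8 of 8) were at 247 to 377 CPM in Δ4/Δ4 mice and at 306, 23456 and 1785 CPM in +/+ mice 5, 7 and 8, led by Ttr at 14542 CPM in mouse 7, with Kcne2 at 0 reads in Δ4/Δ4 mouse 3 and +/+ mouse 5. Ependymal markers (4 of 4) were at 34.4, 14 and 45.1 CPM in Δ4/Δ4 mice 2, 3 and 6 and 48.6, 152 and 119 CPM in +/+ mice 5, 7 and 8, with a median log2 difference of -1.85 and 4 lower genes at an unadjusted p below 0.05 (none called). The ependymal and the choroid plexus sums were both lowest in Δ4/Δ4 mouse 3 and highest in +/+ mouse 7. The most of the 50 genes had their lowest and highest values in these mice too, and a relation was not tested. Dentate gyrus markers (5 of 5) were at 141, 147 and 485 CPM in Δ4/Δ4 mice 2, 3 and 6 and 507 to 602 CPM in +/+ mice, so that mouse 6 lay near the +/+ mice, as it did for the summed class I heavy chains. CA1 markers (6 of 6) were at 859 to 971 CPM against 363 to 402 CPM, and medial habenula markers (9 of 9, a neighbouring region) at 46.8 to 90.9 CPM against 278 to 417 CPM. Called genes were 8 of the 9 medial habenula markers, all lower (median log2 difference of the 9 -5.41), and 2 CA1 markers, both higher. In the dentate gyrus and choroid plexus lists 1 gene each was called, lower in both. Over all genes 1.22% were called. Endothelial markers (9 of 9), a cell type with high class I expression, were at 165 to 215 CPM against 119 to 171 CPM, and pericyte and smooth muscle markers (7 of 7) at 155 to 263 CPM against 107 to 157 CPM. All 9 endothelial genes had a higher mean in Δ4/Δ4 mice (median log2 difference 0.37), and 3 had genotypes that did not overlap. Of the 7 pericyte and smooth muscle genes 6 were higher and 1 lower (median 0.62), and 4 did not overlap, all higher. None of either list was called. Oligodendrocyte markers (6 of 6) were at 5776 to 8819 CPM against 6980 to 9703 CPM and astrocyte markers (7 of 7) at 5489 to 6491 CPM against 4878 to 6199 CPM. The astrocyte sum is mostly Slc1a2. Of the 7 astrocyte genes 4 were lower and 3 higher, with a median log2 difference of -0.003 and a highest of 0.24. Only 2 of the 7 had genotypes that did not overlap, and both were lower in every Δ4/Δ4 mouse. Aqp4 was called lower (log2 difference -0.68, FDR 0.067), and Gfap measured 317, 230 and 443 CPM in Δ4/Δ4 mice 2, 3 and 6 and 497, 475 and 589 CPM in +/+ mice (log2 difference -0.70, FDR 0.17), with Δ4/Δ4 mouse 6 nearest the +/+ mice. Neuronal markers (5 of 5) were at 4865 to 5399 CPM against 3609 to 4525 CPM, blood markers (5 of 5) at 39.1 to 71.4 CPM against 33 to 110.3 CPM and meningeal fibroblast markers (5 of 6) at 13.4 to 175 CPM against 34.3 to 43 CPM. The meningeal sum was mostly Dcn in Δ4/Δ4 mice 2 and 3 (152 and 101 CPM). Dcn had a higher mean in Δ4/Δ4 mice, and the other 4 genes a lower one (median log2 difference of the 5 -0.42). Perivascular macrophage markers (2 of 6 in the matrix) were at 3.22 to 6.28 CPM against 4.09 to 5.74 CPM, and of 9 T cell and leukocyte markers only Ptprc was in the matrix, at 4.43 to 4.96 CPM against 4.94 to 6.03 CPM.

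**Figure D4:**
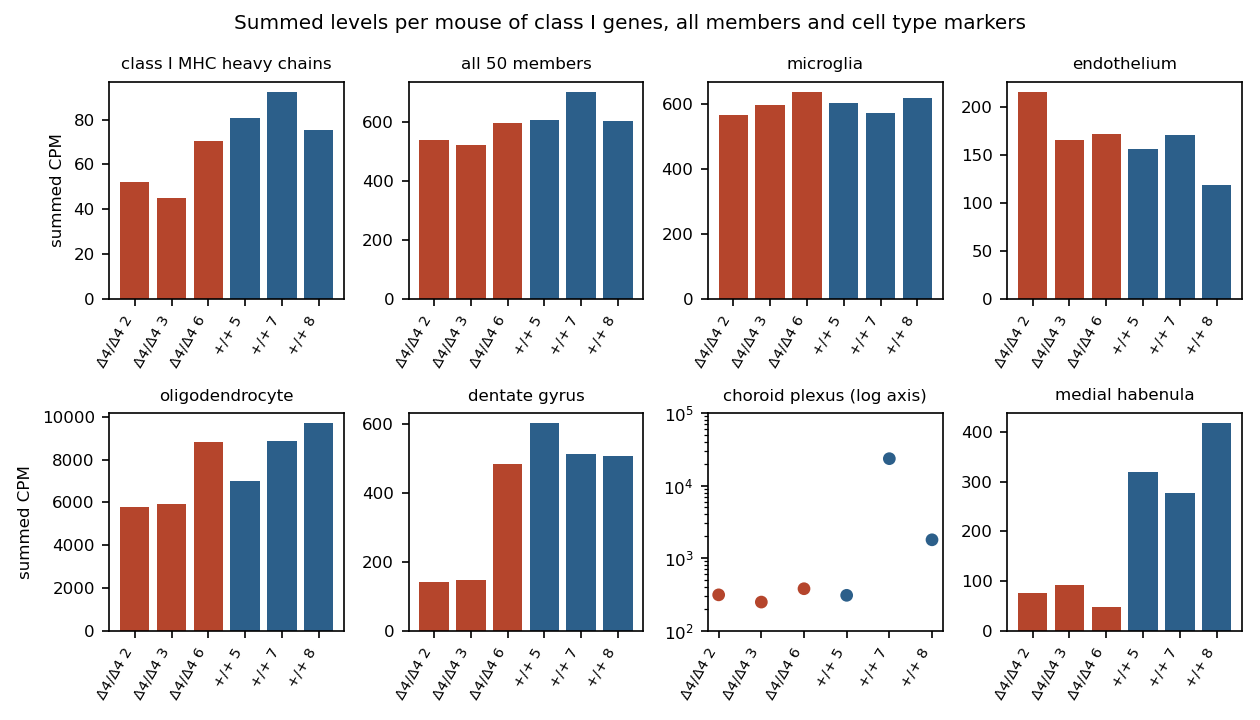
Summed CPM per mouse of the 7 class I heavy chains, of all 50 genes and of 6 marker lists (bars from 0; the choroid plexus panel has a log axis). The class I sum was 45 to 70.6 CPM in Δ4/Δ4 mice (red) and 75.1 to 92.3 CPM in +/+ mice (blue), while the microglial sums overlapped.

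A further list of interferon and antigen presentation genes that the symbol pattern does not take in held 89 genes, of which 73 were in the matrix. None was differentially expressed by limma or by voom, 52 were lower in Δ4/Δ4 mice, the median log2 difference was -0.15, and 8 lower and 5 higher genes passed an unadjusted p of 0.05, where 12% of all genes were lower and 11.6% higher at that p and 52.4% of all genes were lower at any p. Receptors and kinases (8 genes, 5 lower) included Jak1, the kinase shared by all interferon receptors, which measured 289, 259 and 241 CPM in Δ4/Δ4 mice and 207, 174 and 194 CPM in +/+ mice. It was higher in every Δ4/Δ4 mouse, by 0.46 ± 0.10 on the log2 scale (FDR 0.13). The type I receptor chain Ifnar1 was also higher in each (0.23 ± 0.08, FDR 0.17), whereas Jak2 and Tyk2 overlapped (-0.10 and -0.15). Among the antigen presentation genes (14 genes, 11 lower), Tapbp, which bridges class I molecules to the transporter, measured 22.5, 21.6 and 22.2 CPM against 26.7, 33.7 and 25.3 CPM (-0.36 ± 0.12, FDR 0.17). Cd74, the class II invariant chain, measured 0.717, 0.667 and 0.826 CPM against 1.19, 1.56 and 1.21 CPM (-0.83 ± 0.30, FDR 0.17). Both were lower in every Δ4/Δ4 mouse, but Cd74 was below the authors' CPM filter in each of those mice. Cd74 entered the matrix only through the +/+ mice. Cxcl10 and Ikbke, both lower, were also below that filter in every Δ4/Δ4 mouse. Among the Δ4/Δ4 mice, the lower genes Socs3, Psmb9 and Slfn2 reached it only in mouse 3 (Socs3) or mouse 6 (Psmb9 and Slfn2). The lower direction of these genes is therefore not independent of the filter, and all of them are in the counts of this list. Of 29 effectors 22 were lower, with a median log2 difference of -0.36. Trim21, an antibody receptor and ubiquitin ligase of the cytosol, measured 2.32, 1.62 and 2.48 CPM against 3.80, 6.25 and 3.37 CPM and did not overlap (-1.03 ± 0.30, FDR 0.15). The nucleic acid sensing genes (10 genes, 6 lower) had a median of -0.02. Among them Mavs, the adaptor of the cytoplasmic RNA sensors, at 7.0, 5.33 and 6.35 CPM against 7.50, 12.1 and 8.63 CPM, was lower in every Δ4/Δ4 mouse (-0.57 ± 0.21, FDR 0.18), whereas Tmem173, which encodes the DNA-sensing adaptor STING, overlapped (0.18 ± 0.21). Regulators (12 genes, 8 lower) had a median of -0.05.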

How the data were processed

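The deposited values are log2 CPM for 14477 genes in 6 hippocampal libraries. The authors trimmed single-end reads (Trimmomatic 0.39), mapped them to GRCm38 (STAR 2.7.3a), counted them per gene (featureCounts, Subread 1.6.4), filtered on CPM and normalized with edgeR before depositing the log2 values; the strandedness of counting and the prior count are not given in the sources used here. Subtracting the shared lowest value gave CPM, and 100% of values were then whole reads within 0.1. Reads on listed genes numbered 20495605 to 24881257 per mouse. Genotypes came from the sample labels, which name separate mice. Log2 values were fitted with limma 3.58.1 (R 4.3.3; lmFit and eBayes with a mean-dependent prior variance, no covariate), and P-values were adjusted by Benjamini-Hochberg over all 14477 genes. Differential expression meant an FDR below 0.1 and a change above 1.3-fold. SEs and intervals are moderated. Fold changes of low genes are understated by the prior. Scripts were tested on simulated data. Annotation was GENCODE M21 coordinates on GRCm38. Tables were made with Python 3.11.15. All 50 genes enter every count and median, and 48 are reported or drawn individually; the others are not reported here. The genes, lists and tests were chosen with earlier results of these data known. Alternatives were other prior variances, library weights, a low-expression filter, an added count, quantile and median scaling, GC and length adjustment, voom, other thresholds and each mouse left out.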

Additional observations from a re-analysis of the deposited data

How the results depend on the processing

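The number of the 50 genes called was 0 with a single prior variance, a filter at a mean log2 CPM of 1 (37 genes left), log2(CPM + 1), quantile and median scaling, GC and length adjustment, voom, an FDR threshold of 0.05 and no fold threshold. It was 16 with library weights, where 3549 genes of the matrix were called and Δ4/Δ4 mouse 6 had a weight of 0.343 against 4.63 for +/+ mouse 8; the further list then had 16 calls. Leaving out 1 mouse at a time gave 0 to 11 calls among the 50 and 0 to 8 in the further list, and the calls came from leaving out Δ4/Δ4 mouse 6, where 2830 genes of the matrix were called. The cause was not tested. The count at an unadjusted p below 0.05, 13 as reported, was 7 after quantile scaling and 22 with library weights. The median log2 difference of the 50 was -0.13 after quantile scaling (33 genes lower) and -0.26 after median scaling (37 lower). For the single genes named, 37 values under these alternatives passed the thresholds that the main values missed. Over all values checked under the alternatives, 715 stayed the same and 19 moved. No paired analysis was made. The study describes its animals as littermates, but the sources used here do not give the litter of each mouse. The 11 genes with a mean below 2 CPM carry more counting error than the rest.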
